A study of Mus musculus with 8 samples.

Results

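Macrophage and dendritic cell markers were followed through RNA sequencing libraries of mouse gut immune cells. The 9 genes were Csf1r, Flt3, Adgre1, Lyz2, Cd14, Itgax, Xcr1, Cx3cr1 and Zbtb46, taken by symbol from the 52661 genes of the deposited tables. The cells were C57BL/6 intraepithelial lymphocytes, leukocytes that sit within the gut epithelium, sorted for CD45, a surface protein of nearly all leukocytes. That gate keeps macrophages and dendritic cells as well as lymphocytes. All cells spent 24 h at body temperature in RPMI medium with 10% serum, in the osteopontin group with osteopontin at 2 µg/ml (4 libraries) and in the null group without it (4 libraries). In each group the libraries are named 1, 2, A and B. The labels name no genotype beyond the strain, and no age, sex or gut segment. Whether each library is a separate animal or culture is not stated, and the p-values therefore reflect library-to-library spread, part of which may be technical. The series asks how the expression profile of these cells differs with and without osteopontin, a secreted phosphoprotein that binds integrins and CD44.

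Macrophages and dendritic cells are the tissue's phagocytes and antigen-presenting cells. Macrophages depend on signals through the receptor encoded by Csf1r, dendritic cells on signals through Flt3, and both groups of cells carry their own sets of integrins, lectins and chemokine receptors. In the gut they lie mostly in the connective tissue under the epithelium, from which some send processes between epithelial cells. Several of the 9 genes are not private to these cells: Itgax and Cx3cr1 are also carried by activated T cells and NK cells, and Zbtb46 by endothelial cells.

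No marker differed between the groups by more than the spread between libraries. All 9 passed the filter on low counts, and for all 9 the range of the osteopontin libraries overlapped that of the null libraries. Of the 18631 genes tested, 0 were called in either direction at an adjusted p under 0.05 (0% called), so 0 of 9 markers equals the background. By edgeR's quasi-likelihood test each marker had an adjusted p of 1.00. At an unadjusted p under 0.05 there were 732 genes (3.93% of those tested) and 0 of the 9 markers. DESeq2 called 12 genes higher and 29 lower, limma with voom weights 0 and 0, and neither called a marker, although DESeq2 gave Xcr1 and Cd14 no adjusted p. In CPM (reads scaled to the library total), the groups failed to overlap in 3.47% of all genes tested (1.89% higher and 1.58% lower with osteopontin) and in 0 of the 9 markers. Fitted changes were above 0 for 4 markers and below 0 for 5, with a median of -0.09 on the log2 scale against 0.00 for all genes tested.

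**Figure D1:**
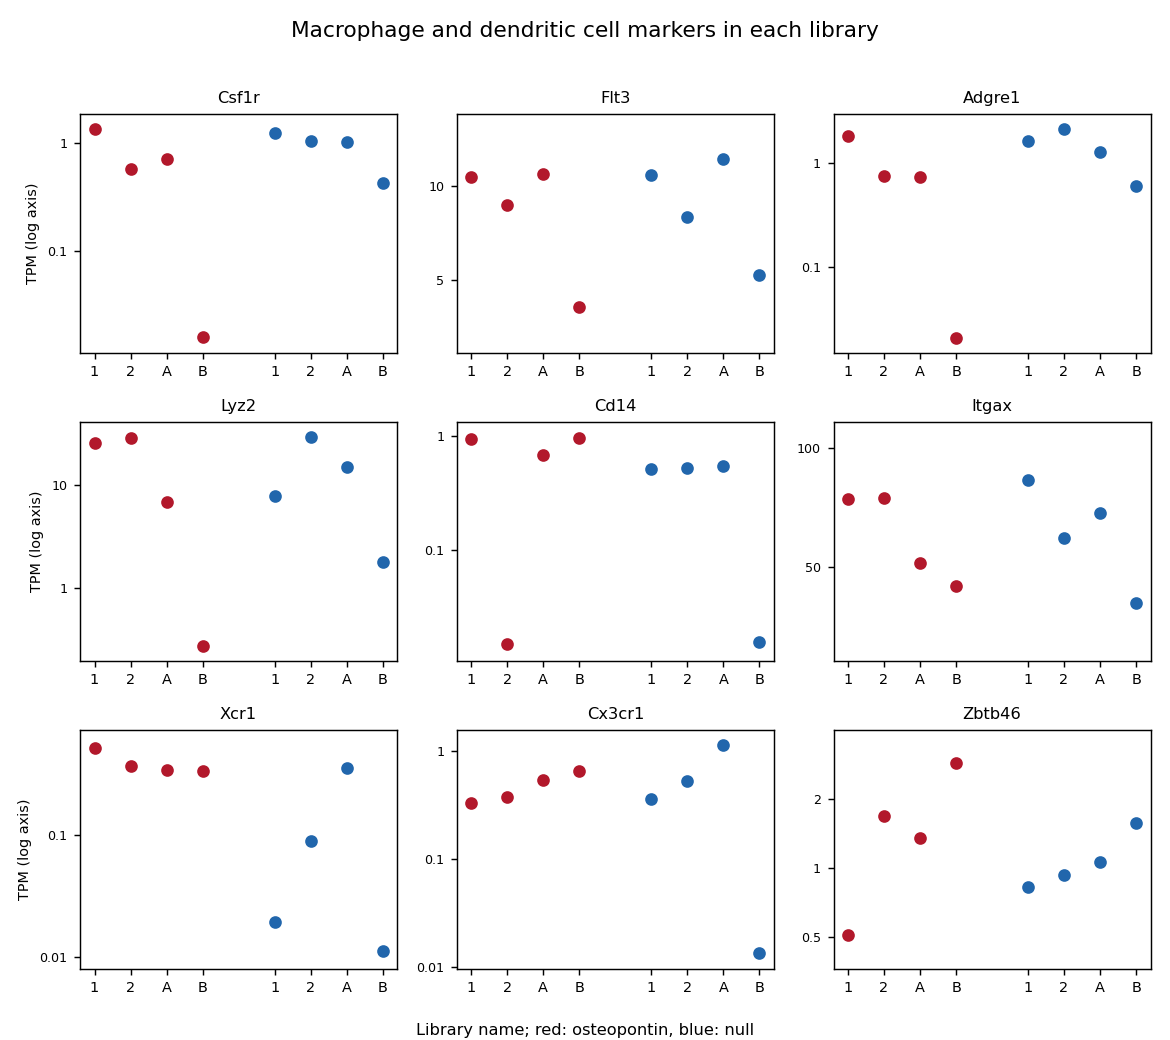
TPM of each marker (log axis, a separate range for each panel) in each library, with osteopontin libraries in red and null libraries in blue, 1 point per library. Csf1r, Adgre1 and Lyz2 are lowest in the B library of both groups, and Zbtb46 is highest there.

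Levels are given as TPM, transcript abundance corrected for length, which allows genes to be compared. Over the 8 libraries, Itgax had the highest mean, 62.1 TPM, followed by Lyz2 at 14.6, Flt3 at 8.83, Zbtb46 at 1.35, Adgre1 at 1.12, Csf1r at 0.788, Cd14 at 0.520, Cx3cr1 at 0.493 and Xcr1 at 0.254. The lowest library of Itgax was above the highest of Lyz2, and the lowest of Flt3 was above the highest of Zbtb46. Every other pair of neighbours in this order had overlapping ranges. Cd3g, a T cell receptor subunit, stood at 1008 to 1276 TPM in the same libraries. In bulk RNA, fewer cells of a type and less RNA per cell cannot be told apart.

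The libraries held 49108969 to 71399847 estimated reads, and 3 reads corresponded to 0.0420 to 0.0611 CPM, the limit that counting error alone sets. Fibroblast markers summed to 118.3 and 79.4 TPM in null 1 and null A and to 1.98 to 7.77 TPM in the other 6 libraries. Enterocyte markers summed to 94.7 and 76.8 TPM in osteopontin B and null B and to 33.3 to 39.7 TPM elsewhere. These cells, like Paneth and endothelial cells, lack CD45, for which the sort had selected. Marker results that move without one of these libraries are given with and without it.

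Csf1r encodes the receptor for the growth factors CSF1 and IL-34, on which most macrophages depend. Its gene lies on chromosome 18 from 61100598 to 61132149, plus strand (GRCm38, GENCODE M21). Csf1r stood at 1.32, 0.569, 0.703 and 0.0165 TPM in osteopontin 1, 2, A and B, and at 1.22, 1.04, 1.01 and 0.423 TPM in null 1, 2, A and B. The B library was the lowest of its 4 in both groups, and osteopontin B held only 2 reads against 72 to 243 elsewhere. Mean levels were 0.652 ± 0.536 TPM with osteopontin and 0.924 ± 0.347 TPM without (SD, n = 4 each). The fitted log2 change was -0.54 (SE 0.81, 95% interval -2.27 to 1.19), an interval that reaches well to both sides of 0. The change was -1.15 without osteopontin 1, -0.14 without osteopontin B and -0.38 without both B libraries. Its exons share 873 bases with the opposite-strand gene Hmgxb3, and the libraries were stranded per the labels.

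Flt3, the receptor for FLT3 ligand on dendritic cells and their progenitors, lies on chromosome 5 from 147330741 to 147400489, minus strand. It stood at 10.7, 8.69, 11.0 and 4.07 TPM in osteopontin 1, 2, A and B, and at 10.8, 7.96, 12.2 and 5.19 TPM in null 1, 2, A and B. Both groups followed the same order, A highest, then 1, then 2, then B. Means were 8.61 ± 3.20 and 9.05 ± 3.13 TPM (SD, n = 4 each), with a log2 change of -0.09 (SE 0.36, interval -0.91 to 0.73). This change was 0.15 without osteopontin B, 0.095 without null A and 0.36 without null 1 and A, so its sign rests on single libraries. Flt3 rested on 466 to 2154 reads per library, enough that counting error is small beside these differences. One transcript carried 97.5 to 100% of its reads.

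The ligands of both receptors and the other partners of the markers were read as a list of 9 genes, of which 9 were tested, 2 had a fitted change above 0 and 7 below, and 0 were called. Flt3l, the FLT3 ligand, was abundant and even, at 154, 168, 174 and 167 TPM with osteopontin and 156, 142, 159 and 202 TPM without, in the order 1, 2, A, B. Its log2 change was -0.06 (SE 0.09). Csf1 stood at 0 to 1.36 TPM with osteopontin and 0.225 to 1.39 TPM without, with a log2 change of -1.46 (SE 1.04). Il34, the other CSF1R ligand, reached 11.4 TPM in null B and was between 0 and 1.12 TPM in the other 7 libraries. The CSF1R ligands were thus low in most libraries, and FLT3 ligand was high in all 8.

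Adgre1 encodes F4/80, the classical surface antigen of mouse macrophages, and lies on chromosome 17 from 57358691 to 57483527, plus strand. It stood at 1.83, 0.756, 0.724 and 0.0207 TPM in osteopontin 1, 2, A and B, and at 1.62, 2.14, 1.28 and 0.606 TPM in null 1, 2, A and B. Again both B libraries were lowest, with 2 reads in osteopontin B and 82 in null B. Means were 0.832 ± 0.745 and 1.41 ± 0.645 TPM (SD, n = 4 each). The log2 change was -0.76 (SE 0.85, interval -2.60 to 1.08), and it was -1.52 without osteopontin 1, -0.45 without null 2, -0.36 without osteopontin B and -0.61 without both B libraries. Both Adgre1 transcripts in the tables are coding, and nearly all reads went to a single one in each library: to one of them in osteopontin 1 and null 2 (99.1 and 100%), to the other in the remaining 6 libraries. Only the sum over both was used.

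Lyz2 encodes the lysozyme of macrophages, monocytes and neutrophils, and lies on chromosome 10 from 117277331 to 117282321, minus strand. Its neighbour Lyz1, the lysozyme of Paneth cells, lies on the same strand from 117287797 to 117292868. The start of both coding sequences is shown because the pair are near copies, so that reads from one can be assigned to the other. Capitals mark the 7 bases at which the first 90 coding bases differ (GENCODE M21 transcripts, coding strand).
Lyz2: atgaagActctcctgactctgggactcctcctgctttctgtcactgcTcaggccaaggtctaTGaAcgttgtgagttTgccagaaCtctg
Lyz1: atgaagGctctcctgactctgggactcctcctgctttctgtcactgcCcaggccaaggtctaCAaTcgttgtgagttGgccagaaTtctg
Over all 444 coding bases they differ at 22 positions. Of the 1286 stretches of 31 bases in Lyz2 transcripts, 422 (32.8%) also occur in Lyz1.

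Lyz2 stood at 26.1, 29.2, 6.84 and 0.270 TPM in osteopontin 1, 2, A and B, and at 7.94, 30.1, 15.1 and 1.78 TPM in null 1, 2, A and B. It was highest in library 2 and lowest in library B of both groups, and the groups covered nearly the same range. Lyz1 was listed at 0.763 TPM in osteopontin 1 and 0.574 TPM in osteopontin A, on 40 and 25 reads, and at 0 in the other 6 libraries, so it did not enter the test. Lyz2 means were 15.6 ± 14.2 and 13.7 ± 12.2 TPM (SD, n = 4 each), with a log2 change of 0.16 (SE 1.33, interval -3.05 to 3.38). The sign of this change was negative in 9 of 18 alternative settings. The spread of Lyz2 between libraries of a group was large for its level: the SD of log2 CPM was 2.50, against a median of 0.31 for genes within 2-fold of its mean, which put it at percentile 98.5 of them. Neutrophil markers, which could also come with Lyz2, summed to 0.0132 to 0.977 TPM, and S100a8, S100a9 and Elane were at 0 in all 8 libraries.

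Cd14, the co-receptor that passes bacterial endotoxin to TLR4, lies on chromosome 18 from 36725067 to 36726798, minus strand. It stood at 0.926, 0.0152, 0.675 and 0.946 TPM in osteopontin 1, 2, A and B, and at 0.508, 0.526, 0.547 and 0.0158 TPM in null 1, 2, A and B. Osteopontin 2 and null B held 1 read each, and the other 6 libraries 28 to 63. The 3 higher osteopontin libraries were above all null libraries, but osteopontin 2 was the lowest of all 8. Means were 0.641 ± 0.435 and 0.399 ± 0.256 TPM (SD, n = 4 each), with a log2 change of 0.64 (SE 1.36, interval -2.25 to 3.54). The change was 1.05 without osteopontin 2, 0.24 without null B and 0.014 without both B libraries.

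Among the other parts of the endotoxin receptor, Ly96 shared with Cd14 its low value in null B but not that in osteopontin 2. Tlr4 and Lbp were the lowest of their group in neither of these libraries. Tlr4 stood at 0.0467 to 1.46 TPM with osteopontin and 0.388 to 1.59 TPM without (log2 change -0.74, SE 0.76). Ly96, which encodes the TLR4 partner MD-2, stood at 0.103 TPM in null B and at 5.84 to 10.7 TPM in the other 7 libraries. Lbp, the serum protein that binds endotoxin, stood at 0.104 to 0.379 TPM with osteopontin and 0.133 to 1.59 TPM without (log2 change -1.30, SE 1.25). Of the 20 genes listed for endotoxin signalling and its targets, 17 were tested, 6 had a fitted change above 0 and 11 below, and 0 were called. In that list the smallest p belonged to Cxcl1, a neutrophil-attracting chemokine that fibroblasts also make. Cxcl1 stood at 0.0272, 0.0277, 0.0325 and 1.19 TPM with osteopontin and 10.7, 0.797, 8.18 and 0.303 TPM without, in the order 1, 2, A, B (log2 change -3.98, SE 1.49). Its 2 highest libraries, null 1 and null A, were also those with fibroblast transcripts, and the part these play in it was not tested. Irak1, the kinase of the list with the highest level, had a log2 change of 0.00 (SE 0.08).

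Itgax encodes the integrin chain CD11c, a marker of dendritic cells that activated intraepithelial T cells can also carry. It lies on chromosome 7 from 128129547 to 128150657, plus strand. Itgax stood at 74.2, 74.9, 51.4 and 44.8 TPM in osteopontin 1, 2, A and B, and at 83.1, 59.2, 68.4 and 40.7 TPM in null 1, 2, A and B. The B libraries were lowest in both groups, though by far less than for Csf1r or Lyz2: the highest of the 8 libraries was 2.04 times the lowest. Means were 61.3 ± 15.5 and 62.9 ± 17.8 TPM (SD, n = 4 each), with a log2 change of -0.11 (SE 0.23, interval -0.63 to 0.42). This was the narrowest interval of the 9 markers, and it leaves room for less than a 2-fold change either way. Without osteopontin B the change was 0.022, and without null 1 it was 0.011.

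The level of Itgax depended on how its transcripts were added up. The full-length transcript took 89.8 to 95.6% of Itgax reads but stood at only 24.0 to 43.3 TPM, and 3 shorter transcripts held the rest of the TPM. In osteopontin 1, for instance, the full-length transcript held 41.8 of the 74.2 TPM. By the full-length transcript alone, the lowest Itgax library was below the highest Lyz2 library, so the gap between the top pair of markers holds only for summed TPM. Of the 31-base stretches in Itgax transcripts, 10.7% also occur in Itgad, a related integrin gene. Itgb2, the beta chain that pairs with CD11c, stood at 115 to 146 TPM with osteopontin and 141 to 153 TPM without (log2 change -0.04, SE 0.07).

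Xcr1 encodes the receptor for the chemokine XCL1 and marks type 1 conventional dendritic cells, which present antigen to CD8 T cells. It lies on chromosome 9 from 123852315 to 123862029, minus strand. Xcr1 stood at 0.521, 0.365, 0.340 and 0.333 TPM in osteopontin 1, 2, A and B, and at 0.0193, 0.0900, 0.353 and 0.0113 TPM in null 1, 2, A and B. All osteopontin libraries were above null 1, 2 and B, but null A was above osteopontin A and B, so the groups overlapped. The reads behind these levels were few, 46.9 to 111 with osteopontin and 2.2 to 76.5 without. Means were 0.390 ± 0.0884 and 0.118 ± 0.160 TPM (SD, n = 4 each). The log2 change, 1.69 (SE 1.13, interval -0.72 to 4.09), was the largest of the 9 in this fit, with an unadjusted p of 0.156 and an adjusted p of 1.00 by edgeR's quasi-likelihood test. The change stayed above 0 in all 18 alternatives, from 0.32 on log2(TPM + 1) to 3.22 without null A. The unadjusted p was 0.0282 without null A, 0.0306 with voom and 0.0338 and 0.0389 by limma on the TPM scales. The lowest adjusted p over the alternatives was 0.684.

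Xcl1, the ligand of XCR1, stood at 46.1, 49.8, 61.0 and 105 TPM with osteopontin and 62.0, 54.4, 55.4 and 103 TPM without, in the order 1, 2, A, B. Here the B libraries were the highest of both groups, the reverse of their place for Xcr1, and the groups overlapped (log2 change -0.09, SE 0.27). For Xcr1 that place was held narrowly, at 0.333 TPM in osteopontin B against 0.340 TPM in osteopontin A. Null B held 2.2 Xcr1 reads against 3.3 in null 1. The other markers of type 1 dendritic cells did not share the pattern of Xcr1: of 7 tested, 3 had a fitted change above 0 and 4 below, with a median of -0.04. Irf8, a transcription factor these cells need, had the highest level and stood at 55.8 to 128 TPM with osteopontin and 85.2 to 125 TPM without (log2 change -0.18, SE 0.29). Wdfy4, needed for cross-presentation, had the smallest p of the list and a log2 change of -0.37 (SE 0.24).

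Cx3cr1, the receptor for CX3CL1 on resident macrophages, monocytes and some effector lymphocytes, lies on chromosome 9 from 119901616 to 120069879, minus strand. It stood at 0.333, 0.376, 0.541 and 0.654 TPM in osteopontin 1, 2, A and B, and at 0.364, 0.529, 1.14 and 0.0134 TPM in null 1, 2, A and B. The null group held both the highest library, null A, and the lowest, null B with 2.2 reads, and the osteopontin libraries lay between them. In osteopontin B, 74.4% of the reads went to a transcript with 0 reads in the other 7 libraries. By the transcript that took all reads in those libraries, osteopontin B stood at 0.146 TPM, the lowest of its group rather than the highest. Means were 0.476 ± 0.149 and 0.511 ± 0.470 TPM (SD, n = 4 each), with a log2 change of -0.20 (SE 0.92, interval -2.17 to 1.76). The change was 0.56 without null A, -0.61 without null B and -0.72 without both B libraries. Its ligand Cx3cl1 stood at 5.76 TPM in osteopontin B and between 0 and 0.833 TPM in the other 7 libraries.

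Zbtb46 encodes a transcription factor of conventional dendritic cells and of endothelial cells, and lies on chromosome 2 from 181387762 to 181459426, minus strand. It stood at 0.511, 1.68, 1.35 and 2.87 TPM in osteopontin 1, 2, A and B, and at 0.830, 0.934, 1.06 and 1.57 TPM in null 1, 2, A and B. It was the only one of the 9 markers that was highest in the B library of both groups. In CPM, 11.5% of all genes tested were highest there too, so 1 of 9 markers is near the background. Means were 1.60 ± 0.977 and 1.10 ± 0.330 TPM (SD, n = 4 each), with a log2 change of 0.32 (SE 0.45, interval -0.64 to 1.27). Without osteopontin B the change was 0.019, without osteopontin 1 0.56 and without both B libraries 0.13. Of its 5 transcripts, the longest took 31.3 to 83.7% of the reads. By this transcript alone the B libraries were not the highest. It stood at 0.562 TPM in osteopontin B and 0.617 TPM in osteopontin A, and at 0.402 TPM in null B and 0.613 TPM in null 1. Endothelial markers summed to 54.5 and 57.4 TPM in osteopontin B and null B and to 26.8 to 52.8 TPM elsewhere. Pecam1 made up most of this sum in every library, at 26.6 to 42.8 TPM. It stood at 26.6 TPM in osteopontin 2, where Cdh5, Kdr, Tie1 and Emcn were at 0.149 TPM or less. Kdr, Tie1 and Emcn, named after their values were seen, were highest in both B libraries and null 2. Cdh5, a defining endothelial gene chosen after its values were seen, stood at 6.19 and 5.45 TPM in the B libraries, at 6.00 TPM in null 2 and at 0.0660 to 0.820 TPM in the other 5. Zbtb46 and Cdh5 had a Pearson r of log2 CPM of 0.18 over all 8 libraries and -0.43 without the B libraries. Endothelial cells lack CD45, for which the sort selected, and the part of their RNA in the Zbtb46 levels was not tested.

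**Figure D2:**
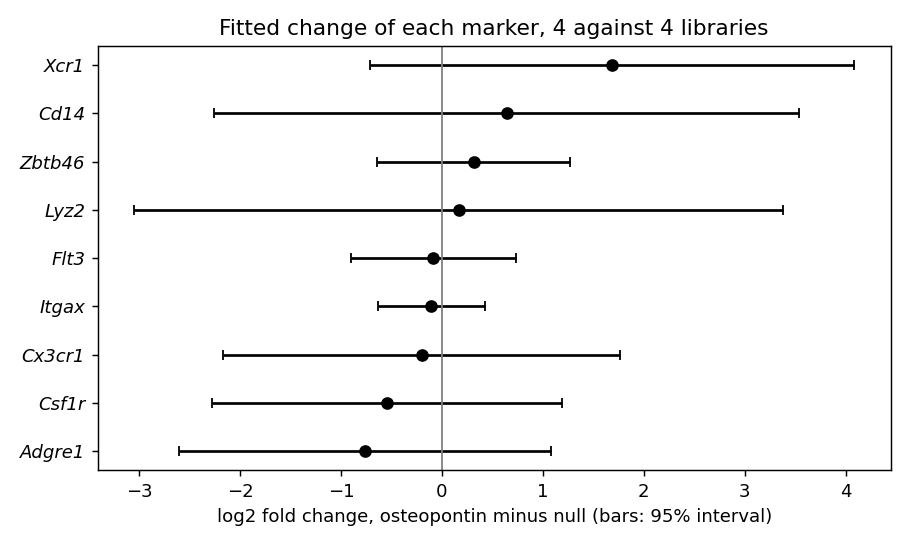
Fitted log2 change of each marker, osteopontin minus null, with points for the estimate from 4 against 4 libraries and bars for its 95% interval. All 9 intervals include 0, and they range in width from Itgax (-0.63 to 0.42) to Lyz2 (-3.05 to 3.38).

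The other lists of myeloid and dendritic genes gave 0 called genes and, in CPM, 0 without overlap. There were 6 of them with 47 genes, of which 37 were tested, 11 with a fitted change above 0 and 26 below. Over all genes tested, 9335 were fitted above 0 and 9296 below. Of 17 macrophage and monocyte genes, 9 were tested (4 above 0, 5 below, median -0.12). Ly6c2, a surface protein of inflammatory monocytes that lymphocytes also express, had the highest level, 7.83 to 54.3 TPM with osteopontin and 13.3 to 57.9 TPM without. Itgam, the integrin chain CD11b, had the smallest p and a log2 change of 0.22 (SE 0.30). The other genes of resident macrophages, named here after their values were seen, divided into those with reads and those nearly without. Mertk, Trem2 and Ms4a7 had reads in all 8 libraries, with means of 0.517, 0.560 and 0.607 TPM, near that of Csf1r, and Timd4 reached 1.03 TPM. Vsig4 was at 0 in all 8 libraries and C1qa in 6 of 8. Cd68, a lysosomal protein of macrophages also chosen after its values were seen, stood at 4.85 to 20.2 TPM. The complement genes C1qa, C1qb and C1qc and the scavenger receptors Cd163 and Mrc1 were at 0.826 TPM or less in every library.

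The 9 genes shared by myeloid cells summed to 767.3 to 899.3 TPM with osteopontin and 748.3 to 892.5 TPM without. Fcer1g and Tyrobp made up most of this sum, while Cebpa had a mean of 0.710 TPM and Csf2rb ran from 10.0 to 62.0 TPM. Fcer1g, a signalling adaptor that NK cells and some intraepithelial T cells also carry, had the highest level (295 to 392 TPM over all libraries, log2 change 0.05, SE 0.09). Spi1, the transcription factor PU.1, stood at 18.9 to 22.9 TPM with osteopontin and 14.8 to 18.9 TPM without. The log2 change fitted to its counts was -0.22 (SE 0.20), opposite in sign to its TPM, in which all osteopontin libraries were above all null libraries. In CPM the groups overlapped, so no direction is given.

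Dendritic cell lists other than type 1 had median fitted changes below 0 with 0 called. In each of their sums, osteopontin B was the lowest osteopontin library. It stood at 8.05 against 27.0 to 29.1 TPM for type 2 genes and 110.5 against 116.8 to 195.7 TPM for mature genes. For plasmacytoid genes it stood at 94.0 against 227.6 to 272.5 TPM. The part of this library in the medians was not tested. Of 4 type 2 dendritic genes 3 were tested, with a median of -0.31. Among them Sirpa, an inhibitory receptor, had the highest level and Cd209a, a lectin, the smallest p, with log2 changes of -0.10 and -0.31. Of 6 mature dendritic genes 5 were tested, with a median of -0.11. Fscn1, an actin-bundling protein of mature dendritic cells, stood at 15.4, 7.76, 39.3 and 10.2 TPM with osteopontin and 21.6, 12.8, 29.2 and 18.1 TPM without, in the order 1, 2, A, B. In TPM the highest library was osteopontin A. The fit used counts, in which means were 16.7 ± 5.73 CPM with osteopontin and 24.1 ± 3.08 CPM without (SD), and the groups overlapped. The log2 change was -0.52 (SE 0.21), with an adjusted p of 1.00 by edgeR. Ccr7, which guides mature dendritic cells and naive T cells to lymph nodes, had a change of -0.07.

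All 4 plasmacytoid dendritic genes were tested, with a median of -0.22, and in CPM all 4 were lowest in the B library of both groups. In TPM this did not hold for Tcf4, at 43.3 TPM in osteopontin B and 35.7 to 46.2 TPM in the other osteopontin libraries. Bst2, a surface protein of these interferon-producing cells, stood at 46.5 and 54.2 TPM in the B libraries and at 97.9 to 142 TPM elsewhere. Cox6a2 had the smallest p and a log2 change of -0.74 (SE 0.75). Siglech, the defining lectin of plasmacytoid cells in mice and chosen after its values were seen, stood at 3.80 and 25.2 TPM in the B libraries and at 80.3 to 125 TPM elsewhere. Siglech thus exceeded Csf1r and Adgre1 in TPM in every library.

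All 10 genes of MHC class II presentation and costimulation were tested, 1 above 0 and 9 below, with a median of -0.32 and 0 called. B cells express most of these genes too. Ciita, the master regulator of the pathway, had the smallest p (log2 change -0.54, SE 0.28), and Cd74, the invariant chain, the highest level. The class II list summed to 1130 TPM in osteopontin B and 2163 to 3267 TPM elsewhere. B cell markers summed to 290.4 TPM in osteopontin B and to 446.4 to 689.2 TPM elsewhere. The part of B cells in the class II values was not tested.

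**Figure D3:**
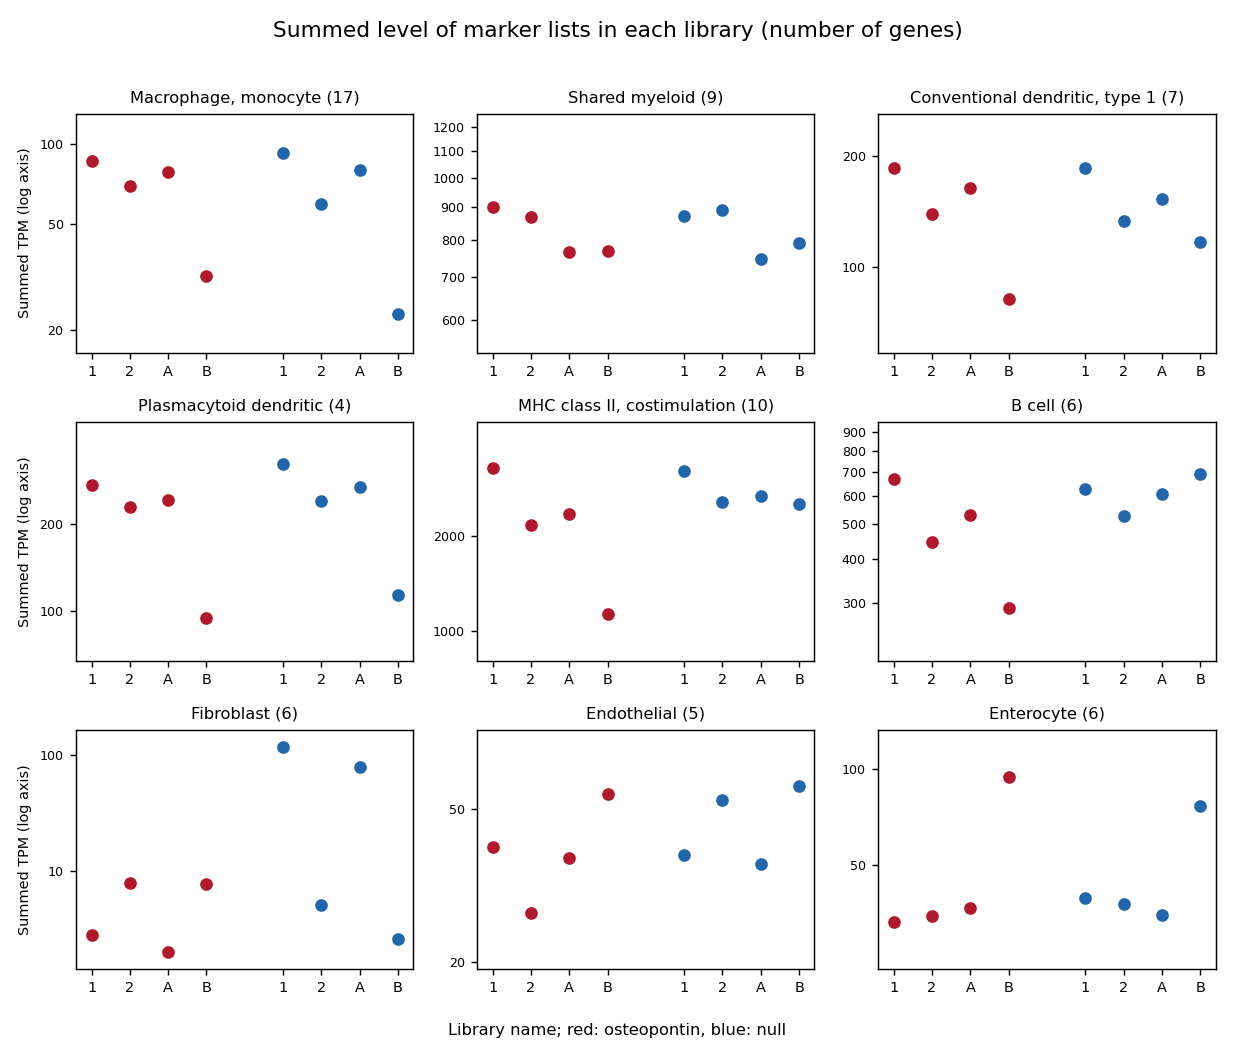
Summed TPM of 9 marker lists (log axis, a separate range for each panel) in each library, osteopontin in red and null in blue, with the number of genes in brackets. The macrophage and plasmacytoid sums are lowest and the enterocyte sum is highest in the B library of both groups. Ly6c2 makes up most of the macrophage sum in every library but osteopontin B.

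The clearest structure among the markers followed the library name rather than the group. In CPM, Csf1r, Flt3, Adgre1, Lyz2, Itgax and Xcr1, 6 of the 9, were lowest in library B of both groups, compared with 14.0% of all genes tested. Xcr1 was lowest there only narrowly and on few reads. Of the 37 tested genes in the other myeloid and dendritic lists, 22 were lowest in both B libraries. None of the 9 markers was lowest in both groups under the names 1, 2 or A, against 4.76, 5.21 and 6.19% of all genes tested. The name B was singled out after the values were seen, so these counts are a description. The labels do not say what the names stand for, and the B libraries were not alike in depth, with 49108969 reads in osteopontin B and 65554396 in null B. Among the list sums, those of the enterocyte, endothelial and Paneth cell lists were highest in the B library of both groups. The endothelial sum was mostly Pecam1 (above). The Paneth cell sum was 8.85 and 13.6 TPM in the B libraries against 0 to 2.04 TPM elsewhere. The sums of ligands and partners, endotoxin genes and mast cell genes were also highest there. The sums of macrophage, type 1 dendritic, plasmacytoid, class II and neutrophil genes were lowest there. Ly6c2, which lymphocytes also express, made up most of the macrophage sum in every library but osteopontin B, where it held 7.83 of 31.9 TPM. Cd68 stood at 18.0 TPM in osteopontin B, within the range of the other osteopontin libraries, and Mertk was highest there. In null B, Cd68 was the lowest of its group at 4.85 TPM. Cxcr2 made up most of the neutrophil sum in every library. Markers of T cells and intraepithelial lymphocytes summed to 4063 to 4738 TPM over all 8 libraries. The part of these differences in the marker levels was not tested.

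Summed over the 9 markers, osteopontin 1, 2, A and B stood at 116.4, 116.5, 73.5 and 54.0 TPM, and null 1, 2, A and B at 106.5, 102.5, 101.1 and 50.3 TPM. Itgax makes up most of each sum. The B libraries were again lowest in each group, and the groups overlapped.

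The markers did not vary as a single block. Over the 8 libraries, 22 of the 36 pairs of markers had a positive Pearson r of log2 CPM, with a median of 0.19 and a range from -0.81 to 0.99. Csf1r and Adgre1 ran closest (r = 0.99), and still had r = 0.89 over the 6 libraries other than B. Csf1r and Lyz2 had r = 0.87 over 8 libraries and 0.02 over those 6, and Lyz2 and Flt3 had 0.81 and -0.62. Zbtb46 ran against Csf1r (r = -0.80 over 8 libraries, -0.77 over 6) and against Adgre1 (-0.81 and -0.69). Without the B libraries 18 of the 36 pairs were positive, with a median of -0.03. These are descriptions over libraries that share names and, within a group, treatment, and the markers with 1 to 3 reads in a library weigh heavily in them.

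**Figure D4:**
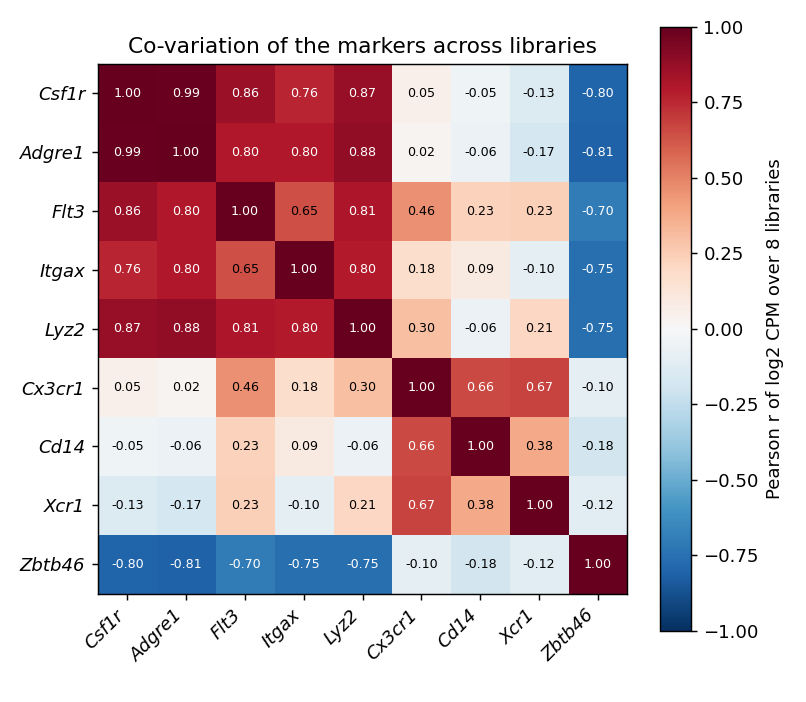
Pearson r of log2 CPM between the markers, over all 8 libraries, 1 cell per pair, red for positive and blue for negative. Csf1r, Adgre1, Flt3, Itgax and Lyz2 run together (r of 0.65 to 0.99) and Zbtb46 runs against them (-0.81 to -0.70).

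Among the 11284 coding genes averaging 1 CPM or more, the ones closest to each marker across the 8 libraries were named by r. Csf1r and Adgre1 shared Ly6d as their closest gene (r = 0.99 with both, and 0.94 and 0.92 without the B libraries). Ly6d encodes a surface protein of early B and plasmacytoid cell progenitors. Next came Plxnb2, a semaphorin receptor, for Csf1r and Mtch1, a mitochondrial protein, for Adgre1 (0.99 each, and 0.90 and 0.95 without the B libraries). For each, the other marker came after these. Closest to Lyz2 were Sema4d, Sec24d and Msl3 (0.99, 0.98 and 0.97), which had 0.95, 0.82 and 0.81 without the B libraries. Closest to Itgax were Gzmk, a granule protease of T cells (0.98), Cst7, a cysteine protease inhibitor of cytotoxic cells (0.98), and Ppp2r2c (0.97), and these had 0.96, 0.96 and 0.94 without the B libraries.

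Flt3 was closest to Csf2rb2, a beta chain of the IL-3 receptor (0.99), Cd33 (0.98) and Adam11 (0.97). Without the B libraries these had 0.97, 0.80 and 0.93. Zbtb46 was closest to Slc25a47, Mtg1 and Ssb (0.95, 0.94 and 0.94, and 0.92, 0.92 and 0.93 without the B libraries). The genes close to Cx3cr1 included Tceanc2 and Tymp (0.98 each, and 0.93 and 0.85 without the B libraries). Xcr1 and Cd14 had means under 1 CPM and were not searched. With 8 points and 11284 genes, high values of r arise readily: the top 1% of genes began at 0.94 for Csf1r.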

How the data were processed

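Reads had been quantified with Salmon per the submitters' processing notes, which give no version. A transcript release or build is not given in the sources used here. Each library came as a table of transcripts, in which the authors give estimated counts and TPM per the file headers. Both were summed per gene over 133618 transcripts, and counts were rounded. Deposited TPM gave levels and 2 alternatives. Estimated counts were tested with edgeR 4.0.16 (quasi-likelihood, robust, two-sided, filterByExpr minimum count 10, TMM, Benjamini-Hochberg over 18631 genes, call at adjusted p under 0.05). Alternatives used DESeq2 1.42.0, limma 3.58.1 with voom or on log2(TPM + 0.1) and log2(TPM + 1), DESeq2 size factors, no filter, deposited effective lengths as an offset, the replicate name as a block, and left-out libraries. The code was tested on simulated data. Positions and shared stretches come from GENCODE M21. Gene identifier versions were the same for all markers but Csf1r, Adgre1 and Cd14, so positions need not match the build the authors used.

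The markers and lists were chosen with earlier results of these data known. Named are the 9 markers, Lyz1, all ligands and partners, from each other list the gene with the smallest p and that with the highest mean TPM, and the 3 genes most like each marker, of which 1 is not reported here. Siglech, Cdh5 and further genes of the macrophage, shared myeloid, plasmacytoid, mast cell, neutrophil, eosinophil and endothelial lists were named after their values were seen. The floor of 3 reads covers counting error only, while SEs and 95% intervals of log2 changes come from the edgeR fit and its spread between libraries.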

Additional observations from a re-analysis of the deposited data

Results flagged for a closer look

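Levels were examined for a library far from the other 3 of its group, and 3 of 34 such groups held one. The rule, Dixon's test at 95%, marks about 1 group in 20 by chance. Xcr1 in osteopontin 1 stood at 0.521 TPM, above 0.333 to 0.365 TPM in the other osteopontin libraries. Cd14 in null B stood at 0.0158 TPM, on 1 read, below 0.508 to 0.547 TPM in the other null libraries. The type 2 dendritic cell list in osteopontin B summed to 8.05 TPM, below 27.0 to 29.1 TPM in the other osteopontin libraries.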

How the results depend on the processing

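No marker was called under any of the 18 alternatives (DESeq2 gave Xcr1 and Cd14 no adjusted p). Csf1r, Adgre1, Xcr1, Zbtb46 and Cd14 kept the sign of their change in all 18, with ranges of -1.23 to -0.14, -1.52 to -0.36, 0.32 to 3.22, 0.02 to 0.56 and 0.01 to 1.17. For Lyz2 (0.16) the change was -0.45 with the replicate block, -0.19 with voom, -0.45 and -0.15 on log2(TPM + 0.1) and log2(TPM + 1), from -0.34 to 0.91 when single libraries were left out (below 0 without osteopontin 1, osteopontin 2, null 1 or null B), and -0.067 without null 1 and A. For Cx3cr1 (-0.20) it was 0.36 with the replicate block, 0.79 with voom, 0.32 and 0.012 on the TPM scales, -0.61 to 0.56 over single libraries left out (0.56 without null A) and 0.69 without null 1 and A. Over single libraries left out it ran from -0.25 to 0.022 for Itgax (-0.11), above 0 without osteopontin B (0.022) or null 1 (0.011), and from -0.28 to 0.15 for Flt3 (-0.09), above 0 without osteopontin B (0.15) or null A (0.095). Without null 1 and A, Flt3 had 0.36, Csf1r -0.23, Xcr1 2.86, Zbtb46 0.19, Cd14 1.17 and Itgax -0.026, and without both B libraries Flt3 had -0.038. Over all genes, where 0 were called higher and 0 lower, DESeq2 called 12 and 29, no filter 3 and 1, leaving out both B libraries 1 and 48, and log2(TPM + 1) 1 lower. Leaving out single libraries gave 0 to 2 higher and 0 to 35 lower (2 and 35 without osteopontin B, 1 higher without null 1, 1 lower without osteopontin 2 and without null 2). The causes were not tested. The labels do not say that the names pair libraries, so the names were not taken to pair them. Same-named libraries deviated together weakly (r of 0.0808 to 0.143 over 13815 genes, not all above 0.1). Even so, each library correlated best with its namesake. The replicate block changed no call, but it moved unadjusted p-values of edgeR's quasi-likelihood test. These went from 0.386 to 0.0889 for Adgre1, 0.513 to 0.155 for Csf1r, 0.653 to 0.106 for Itgax and 0.156 to 0.0732 for Xcr1. They rose for Zbtb46 (0.493 to 0.678) and Cd14 (0.644 to 0.793), and fell for Lyz2, Flt3 and Cx3cr1. Low counts limit Csf1r, Adgre1, Xcr1, Cx3cr1 and Cd14, which had 3 or fewer reads in 1 or 2 libraries each.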

Other observations

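Lists of other cells that a CD45 gate could hold also gave 0 called genes. Of 7 mast cell genes 2 were tested, and Kit, a growth factor receptor that intraepithelial lymphocytes also carry, had the highest level (181 to 281 TPM, log2 change 0.09, SE 0.07), and Cpa3, a mast cell protease, had reads in all 8 libraries (0.0483 to 2.10 TPM, log2 change 0.28). Mcpt2 and Mcpt4 were at 0 in all 8 libraries, Mcpt1 in 6 and Fcer1a in 4. Eosinophil genes summed to 0.0472 to 5.63 TPM: Ccr3 (log2 change 0.40) had 3 or fewer reads in 3 libraries, Prg2 had a change of -0.16, and Epx was at 0 in all 8. For neutrophils only Cxcr2 was tested (-0.14). All 6 B cell genes were tested and fitted below 0, with a median of -0.41. Among them Ebf1, a B cell transcription factor, had the smallest p (log2 change -0.50, SE 0.23) and Cd79a, a B cell receptor subunit, the highest level (-0.42, SE 0.32). Plasma cell genes had a median of -0.03, with Mzb1 at -0.09 and Igha at -0.03, and NK genes a median of -0.14, with Klrb1c at -0.14.

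T cell and intraepithelial lymphocyte genes had 6 fitted values above 0 and 2 below (median 0.05), with Itgae, the CD103 integrin chain, at 0.12 (SE 0.06) and Cd3g at -0.06. Fibroblast genes had 6 of 6 below 0 with a median of -4.54: Pdgfra (-4.80, SE 1.20) and Dcn (-6.16, SE 1.82) were highest in null 1 and null A. Pecam1, of the endothelial list, had a change of -0.11 and epithelial Epcam of 0.07. The Paneth cell defensin Defa24 stood at 8.85 and 13.5 TPM in osteopontin B and null B and at 0 in the other 6 libraries.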
